A study of Rattus norvegicus with 2 samples.

Results

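Serpins and apolipoproteins are 2 families of secreted proteins that make up much of the plasma output of the liver. On the arrays studied here they were the 50 of 21766 library spots whose gene symbol names a serpin of clades A to I or an apolipoprotein A to H. The 50 spots carried 47 symbols: 37 serpin spots of 34 symbols and 13 apolipoprotein spots. Of these, 26 spots carry the names of plasma proteins made by liver, 14 of them serpins and 12 apolipoproteins, and the other 24 (23 serpins and Apod) the names of genes expressed elsewhere or widely.

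The study compared liver RNA of adult male Wistar rats made diabetic with a single dose of streptozotocin, a toxin of pancreatic beta cells, at 65 mg/kg after a fast of 12 h. Animals whose glycaemia exceeded 200 mg/dl 72 h later then received γ-conglutin, which is a storage protein of lupin seed, for 7 days at 120 mg/kg in 0.9% NaCl, or 0.9% NaCl alone as vehicle. Equal amounts of RNA from 5 rats were pooled per treatment, so both pools are diabetic livers and each treatment is 1 sample. Both pools were hybridised together to 2 arrays of mouse probes, with γ-conglutin in Alexa647 and vehicle in Alexa555 on array 1 and the dyes exchanged on array 2. With 1 pool per treatment there was no test over rats, and no p-value is given. In pooled liver RNA, fewer cells of a type and less RNA per cell cannot be told apart. Whether the names in the files follow the printed probes was not tested, since the files give no probe sequence, and all values by gene name hold only as far as they do.

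Serpins hold proteases in check: the protease cuts an exposed loop of the serpin and is trapped in a stable complex. Hepatocytes secrete the serpins that limit neutrophil elastase, thrombin, plasmin and the first component of complement, while a few family members, such as the corticosteroid carrier Serpina6, bind hormones instead. Apolipoproteins wrap the lipid of lipoprotein particles, with Apob as the structural protein of very low density lipoprotein, Apoa1 as that of high density lipoprotein, and the small C apolipoproteins as regulators of triglyceride clearance.

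None of the 50 spots differed between the pools by 1.5-fold in the same direction on both arrays, against 0.0% of the 21707 library spots above background in either direction. Ratios are on the log2 scale, γ-conglutin over vehicle, so a positive one means more signal in the γ-conglutin pool. A mean ± SD is taken over the 2 arrays, which are technical repeats of 1 pair of pools. The 50 mean ratios ran from -0.14 for Apoh to 0.25 for Serpine2, and 42 of them lay within 0.1 of 0, where 68.1% of all library spots lay. All 50 lay within 0.32 of 0, as did 97.6% of library spots, and 30 lay above 0, against 53.0%. With the size rule lowered to 0.32 on the log2 scale, again on each array, 0 members were higher and 0 were lower, against 0.00461% and 0.304% of library spots.

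The sign of the ratio was the same on both arrays for 11 of the 50. It was above 0 on both for 5 members, where 16.6% of library spots were, and below 0 on both for 6, where 16.1% were. For the other 39 (78.0%) the arrays gave opposite signs, against 67.3% of library spots. The signs then followed the dye: Alexa647 was the brighter on both arrays for 17 members, against 32.7% of library spots, and Alexa555 for 22, against 34.6%. The mean lay farther from 0 than the SD over the arrays for 9 members, against 23.9% of library spots. The ratios on array 1 and array 2 had a Pearson's r of -0.63 across the 50 spots and -0.44 across all library spots, which share the 2 hybridisations and are not independent replicates.

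Among the apolipoproteins, 3 of 13 mean ratios were above 0, where 53.0% of library spots were, with a median of -0.02 against 0.01 over all library spots. The arrays gave opposite signs for 11 of the 13, and 2 were below 0 on both. Apoh, which encodes a phospholipid-binding glycoprotein of plasma also called beta-2-glycoprotein I, had the lowest mean of all members. Its normalised signal was 3311 and 3001 in the γ-conglutin pool on arrays 1 and 2, against 3639 and 3338 in the vehicle pool. The 2 pools did not overlap, with the γ-conglutin pool the lower, as it was for 5.84% of all library spots. The log2 ratios were -0.14 and -0.15, and the mean of -0.14 ± 0.01 is a ratio of 0.904. Among all library spots this mean lay at percentile 12.5.

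The 4 A apolipoproteins, which ride mainly on high density lipoproteins and chylomicrons, had mean ratios below 0, from -0.11 to -0.04. Of all library spots 53.0% had a mean above 0. The mean lay farther from 0 than the SD over the arrays for 0 of the 4, against 23.9% of library spots. The signal of Apoa1 was 1488 and 1498 in the γ-conglutin pool, against 1829 and 1415 in the vehicle pool. These signals follow a normalisation within each array. Before it, the signal above background was 1252 and 1727 in the γ-conglutin pool and 2036 and 1140 in the vehicle pool. The normalised log2 ratio was -0.30 on array 1 and 0.08 on array 2, so the mean of -0.11 ± 0.27 was smaller than the difference between the arrays. Apoa4, made by liver and intestine in rodents, had -0.06 ± 0.19, Apoa2, a small protein of high density lipoprotein, -0.05 ± 0.09, and Apoa5, an activator of triglyceride lipolysis, -0.04 ± 0.04. Of these 4, only Apoa5 was below 0 on both arrays, at -0.07 and -0.01.

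Apob had a signal of 156 and 195 in the γ-conglutin pool and 152 and 203 in the vehicle pool, with a ratio of -0.01 ± 0.07. The C apolipoproteins ran from -0.02 ± 0.09 for Apoc3, an inhibitor of triglyceride clearance, to 0.06 ± 0.09 for Apoc2, the cofactor of lipoprotein lipase. Apoc1 had -0.02 ± 0.15. Apoc4 had 0.01 ± 0.31, from opposite values of -0.21 on array 1 and 0.23 on array 2. Apoe, the ligand by which remnant particles enter hepatocytes, had 0.17 on array 1 and -0.16 on array 2, which gave a mean of 0.00 ± 0.23. Apod, a lipocalin expressed in many tissues, had -0.03 ± 0.19. Apof was not well above background in all channels, and its signal of 55.4 to 57.3 in either pool was close to the offset of 50 that the background correction adds, so its ratio of -0.00 ± 0.04 sets no level for the transcript.

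In the rat genome (RefSeq gene table, assembly GRCr8) Apoa1, Apoc3, Apoa4 and Apoa5 lie next to each other with 0 other protein-coding genes between them, and so do Apoc2, Apoc4, Apoc1 and Apoe. Mean ratios ran from -0.11 to -0.02 in the first cluster and from -0.02 to 0.06 in the second. In neither cluster did all 4 spots keep one sign on both arrays.

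**Figure D1:**
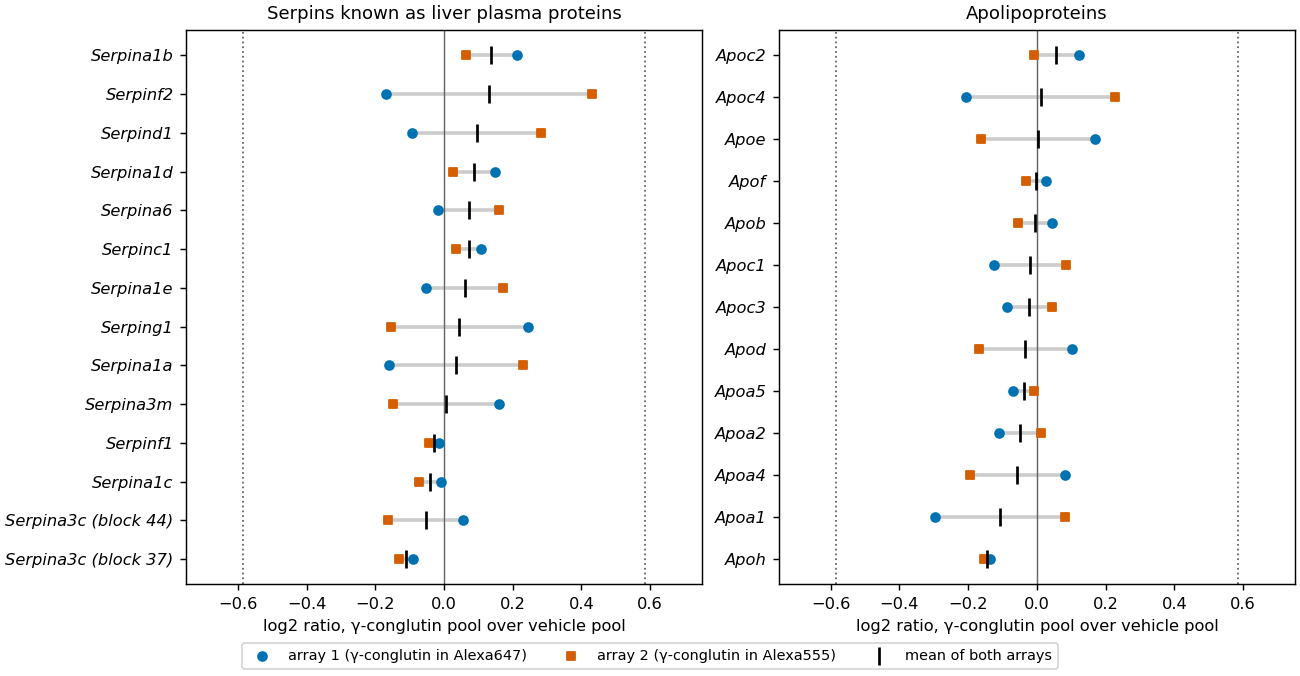
Log2 ratio, γ-conglutin over vehicle, on array 1 (circles), array 2 (squares) and as their mean (ticks) for the 14 spots of serpins known as liver plasma proteins and the 13 apolipoprotein spots, ordered by mean, with grey bars joining the arrays and dotted lines at 1.5-fold. No spot passes the dotted lines, and the bars cross 0 for 8 of the 14 serpin spots and 11 of the 13 apolipoprotein spots.

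The serpins known as liver plasma proteins had a median ratio of 0.05, with medians of -0.01 on array 1 and 0.03 on array 2. The mean was above 0 for 10 of the 14, against 53.0% of library spots and 17 of the 23 other serpin spots. In the mouse, alpha-1-antitrypsin, the main inhibitor of neutrophil elastase, is encoded by several near-identical genes, and the arrays held spots for Serpina1a, Serpina1b, Serpina1c, Serpina1d and Serpina1e. The rat gene table has the single gene Serpina1 in their place, so these 5 spots may share 1 transcript and their values are uncertain as values of separate genes. Serpina1b had a signal of 4374 and 4085 in the γ-conglutin pool, against 3777 and 3910.3 in the vehicle pool. The pools did not overlap, with the γ-conglutin pool higher, as for 4.58% of library spots, and the ratio was 0.14 ± 0.11. Serpina1d was also above 0 on both arrays (0.15 and 0.03), Serpina1c was below 0 on both (-0.01 and -0.07), and Serpina1a and Serpina1e had opposite signs. The means of the 5 spots ran from -0.04 to 0.14. Only that of Serpina1c was below 0, and over the 7 scalings described below it ran from -0.04 to 0.04.

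Clade A also holds the antichymotrypsin-like serpins and the hormone carriers. Serpina3c had 2 spots under 1 accession, a dim one in block 37 with a ratio of -0.11 ± 0.03 and a bright one in block 44 with -0.05 ± 0.16. The dim spot had a signal of 355 and 383 in the γ-conglutin pool and 379 and 419.6 in the vehicle pool, and was below 0 on both arrays. The bright spot gave 66.8 times the signal of the dim one over both pools, although both carry the same name and accession. Serpina3m, a further rodent member of the antichymotrypsin group, had 0.16 on array 1 and -0.15 on array 2, with a mean of 0.00 ± 0.22. Serpina6 had 0.07 ± 0.13.

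Serpinc1, Serpind1 and Serpinf2, inhibitors of coagulation and fibrinolysis from liver, had mean ratios above 0, where 53.0% of library spots were. The arrays agreed in sign for 1 of the 3, and gave opposite signs for 67.3% of library spots. Serpinc1, which encodes antithrombin, had a signal of 375 and 424 in the γ-conglutin pool, against 348 and 414 in the vehicle pool, and a ratio of 0.07 ± 0.05. Serpind1, which encodes the thrombin inhibitor heparin cofactor II, had 4201 and 3767 in the γ-conglutin pool and 4481 and 3095 in the vehicle pool. Its ratio was -0.09 on array 1 and 0.28 on array 2, with a mean of 0.10 ± 0.27. Serpinf2, the plasmin inhibitor alpha-2-antiplasmin, differed most between arrays among the liver serpins, with -0.17 and 0.43 and a mean of 0.13 ± 0.42. Its neighbour in the rat genome, Serpinf1, which encodes pigment epithelium-derived factor, a serpin without known protease inhibition, had -0.03 ± 0.02. Serping1, the C1 inhibitor of complement and plasma kallikrein, had 0.24 on array 1 and -0.16 on array 2, and a mean of 0.04 ± 0.28.

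The 23 spots of serpins of other tissues had a median ratio of 0.02, with medians of -0.03 on array 1 and 0.10 on array 2. Opposite signs on the arrays were found for 20 of the 23 (87.0%), against 67.3% of library spots. Clade E held the highest mean of all members. Serpine2, which encodes protease nexin-1, an inhibitor of thrombin and urokinase at cell surfaces, had a signal of 3889.8 and 3914 in the γ-conglutin pool, against 3359.6 and 3199 in the vehicle pool. The pools did not overlap, with the γ-conglutin pool higher, as for 4.58% of library spots. The log2 ratios of 0.21 and 0.29 gave a mean of 0.25 ± 0.06, a ratio of 1.19. This mean lay at percentile 99.5 of all library spots but below 1.5-fold on each array.

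Serpini1, which encodes the neuronal protease inhibitor neuroserpin, had the second highest mean, 0.23 ± 0.53, from a signal of 24871 and 34820.0 in the γ-conglutin pool and 27444 and 22894 in the vehicle pool. The whole difference came from array 2 (0.605), the only value of any member past 1.5-fold on an array, while array 1 gave -0.14. Serpini2, a pancreatic serpin, had 0.06 ± 0.16. In clade A, Serpina12, the adipose tissue serpin vaspin, had 0.12 ± 0.27, and Serpina9, known from germinal centre B cells, -0.07 ± 0.20. Serpina3g had 0.01 ± 0.13 and Serpina1f 0.01 ± 0.23. The 2 spots of Serpinh1, the collagen chaperone of the endoplasmic reticulum also called Hsp47, had -0.00 ± 0.31 and -0.03 ± 0.02.

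The 13 clade B spots, named for mostly intracellular serpins of epithelia and leukocytes, all had means within 0.1 of 0, where 68.1% of library spots lay. They ran from -0.08 ± 0.27 for Serpinb3a, a squamous cell antigen homologue, to 0.07 ± 0.10 for Serpinb12. Of the clade, only Serpinb9b, a homologue of the granzyme B inhibitor in mouse, did not change sign between arrays (0.04 and 0.03). Serpinb1a (0.02 ± 0.18), Serpinb5 (0.05 ± 0.12), Serpinb7 (0.04 ± 0.15), Serpinb8 (0.05 ± 0.18), Serpinb9c (-0.02 ± 0.32), Serpinb9e (0.02 ± 0.35) and Serpinb11 (0.04 ± 0.19) all had opposite signs on the arrays. Serpinb9, the granzyme B inhibitor itself, had 0.02 ± 0.04 and was not well above background in all channels. The 2 spots named Serpinb2, which encodes plasminogen activator inhibitor 2, had opposite dye patterns. The spot in block 19 had 0.42 on array 1 and -0.38 on array 2, and the spot in block 4 had -0.27 and 0.29. The block 19 spot was the 1 member with one dye brighter by 0.32 or more (log2) on each array, as were 3.42% of library spots. By 1.5-fold this held for 0 members and 0.166% of library spots.

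**Figure D2:**
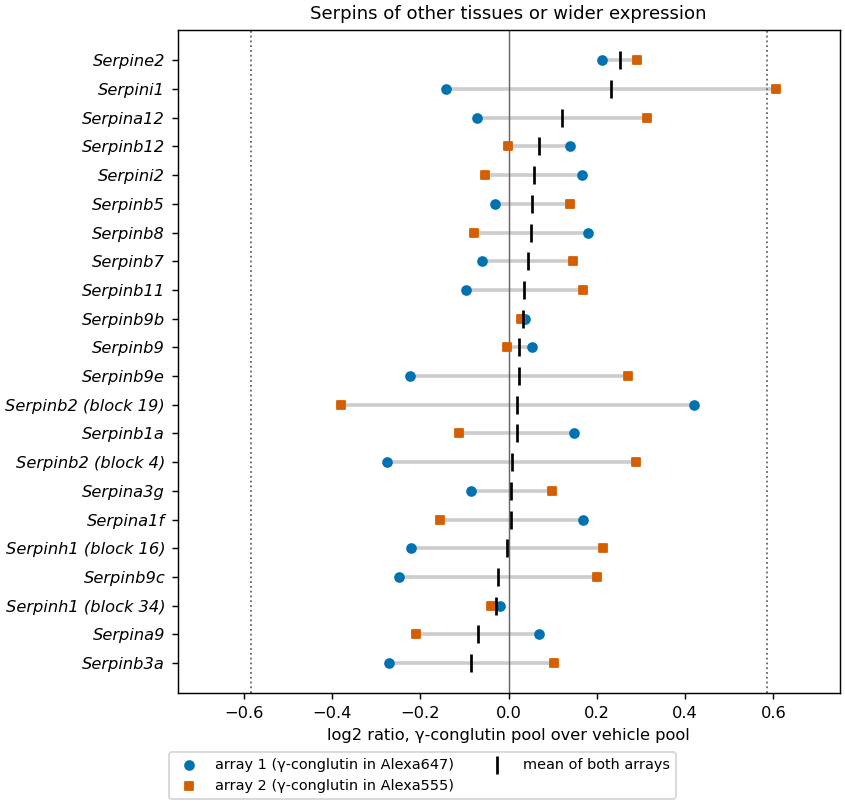
Log2 ratio, γ-conglutin over vehicle, on array 1 (circles), array 2 (squares) and as their mean (ticks) for 22 of the 23 spots of serpins of other tissues or wider expression, ordered by mean, with dotted lines at 1.5-fold. Serpine2 has both arrays above 0 with a mean of 0.25, and only the array 2 value of Serpini1 passes a dotted line.

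Each ratio was computed under 7 scalings of the intensities, namely the main one, plain subtraction of the background, no background correction, loess within print-tip blocks, median centring, and the authors' deposited net intensities and deposited ratio. Serpine2, Serpina1b and Serpina1d were above 0 on both arrays under all 7, as were 4.37% of library spots. Apoh and the dim spot of Serpina3c were below 0 on both arrays under all 7, as were 6.29% of library spots. Over the 7 scalings the mean ran from 0.24 to 0.26 for Serpine2, from 0.13 to 0.16 for Serpina1b, from 0.06 to 0.09 for Serpina1d, from -0.15 to -0.11 for Apoh and from -0.13 to -0.11 for that Serpina3c spot.

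The differences between the arrays moved with the place of the spot on the slide. In blocks 1 to 24, 19 of 24 member spots had a mean dye ratio (Alexa647 over Alexa555) below 0, as had 72.2% of library spots there. In blocks 25 to 48 this held for 5 of 26 member spots and 29.4% of library spots. The median dye ratio of the members was -0.16 in the first blocks and 0.07 in the others, beside -0.09 and 0.07 for all library spots, while their median pool ratio was 0.00 and 0.04. The split at block 24 was chosen after the values were seen, and the part of dye and position in the members' ratios was not tested. With loess fitted within each block, Pearson's r between the arrays across all library spots was -0.31, against -0.44 in the main scaling. Signs under that loess were not counted across library spots, so no count of members is given. Apoa1 under it had -0.07 and -0.08 and was below 0 on both arrays, whereas Serpinf2 (-0.12 and 0.37) and Serpind1 (-0.24 and 0.41) kept opposite signs.

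**Figure D3:**
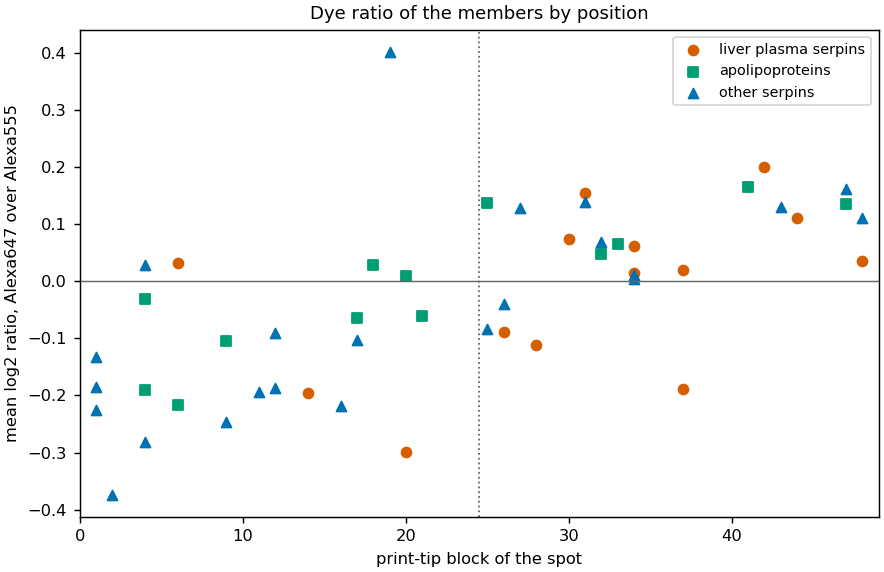
Mean log2 ratio of Alexa647 over Alexa555 for each of the 50 member spots against its print-tip block, with liver plasma serpins as circles, apolipoproteins as squares, other serpins as triangles, and a dotted line between blocks 24 and 25. Of the spots left of the line 19 of 24 lie below 0, and of those right of it 5 of 26.

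**Figure D4:**
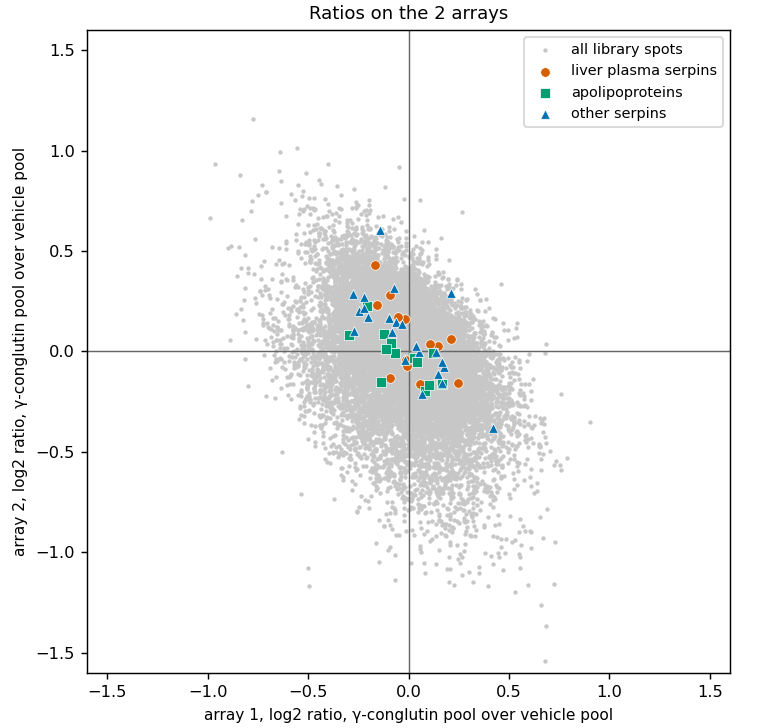
Log2 ratio, γ-conglutin over vehicle, on array 2 against array 1 for the 21707 library spots above background (grey) and the 50 members (coloured by family). Most members lie at the upper left and lower right, where the arrays have opposite signs, and Serpine2, at 0.21 and 0.29, stands apart in the upper right.

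Genes that act with both families were set beside them, from lists chosen with earlier results of these data known. Of 24 spots for genes of lipoprotein handling, 0 passed 1.5-fold on both arrays, 3 were above 0 on both and 4 below, against 16.6% and 16.1% of library spots, and their median was -0.02. Mttp, which encodes the transfer protein that loads lipid onto Apob, had a signal of 15282 and 11269 in the γ-conglutin pool, against 17489 and 14144 in the vehicle pool. Its ratio was -0.19 on array 1 and -0.33 on array 2, with a mean of -0.26 ± 0.09. The highest mean of the list was that of Clu (clusterin, 0.30 ± 0.48) and the lowest that of Pon1 (paraoxonase 1, -0.27 ± 0.45), both from array 2 alone. Lcat, the cholesterol-esterifying enzyme activated by Apoa1, had -0.07 ± 0.07.

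Of 18 spots for proteases that serpins hold, 0 passed 1.5-fold on both arrays, 2 were above 0 on both and 1 below, against the same shares of library spots, with a median of 0.00. Proc, which encodes protein C, was highest at 0.16 ± 0.08, and F12, which encodes coagulation factor XII, lowest at -0.26 ± 0.28. F2, the prothrombin gene, had -0.09 ± 0.26 and Plg, the plasminogen gene, 0.02 ± 0.05. The 28 spots for other plasma proteins of liver had 0 past 1.5-fold, 5 above 0 on both arrays and 2 below (16.6% and 16.1% of library spots), and a median of 0.01. Among them Agt, which encodes angiotensinogen, a serpin by descent that does not carry a serpin symbol, had 0.14 ± 0.31, and Alb, the albumin gene, -0.10 ± 0.27. Cp, which encodes the copper carrier ceruloplasmin, was the highest of that list at 0.17 ± 0.27. The lowest was 1 of the 4 spots of Trf, the transferrin gene, at -0.23 ± 0.39, and the highest of those 4 had 0.16 ± 0.60.

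The signal of the members was set against empty spots and against the array as a whole. In all 4 channels 48 of the 50 members exceeded the 95th percentile of the empty spots, as did 94.3% of library spots, and the 2 that did not were Apof and Serpinb9. All 14 liver serpin spots and 11 of 12 liver apolipoprotein spots passed. Names that mark liver did not stand out by brightness. Ranked by mean log2 signal among library spots, the median member stood at percentile 60.3 for liver serpins, 51.8 for liver apolipoproteins and 40.9 for the other serpins.

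Spots of abundant plasma proteins were spread over the whole range, with Apob at percentile 9.43, Serpinc1 at 21.5, Apoa1 at 51.6, Serpina1a at 56.1, Apoa2 at 74.0, Apoa4 at 92.1 and the bright Serpina3c spot at 94.4. Spots named for Serpini1 (94.9), Apod (95.2) and Serpina9 (95.3), genes not known as products of hepatocytes, were as bright as the brightest of these. Probes differ in how well they hybridise, here also across species, so a percentile describes a spot and gives no order of transcripts. Hepatocyte markers were detected, with all 10 spots above the empty-spot level, as were 94.3% of library spots. Their percentiles ran from 37.0 to 93.5 (Alb), with a median of 68.3. The medians of the other marker lists ran from 7.37 for endothelium to 76.4 for neurons. Markers of other tissues were detected too: 4 of 4 spots for keratinocytes, 4 of 4 for neurons, 3 of 4 for exocrine pancreas, 3 of 4 for germ cells, 5 of 5 for macrophages and leukocytes and 2 of 4 for endothelium. Spots named for liver genes and for genes of other tissues were thus both above the empty-spot level, and each ratio above is that of the spot carrying the name.

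**Figure D5:**
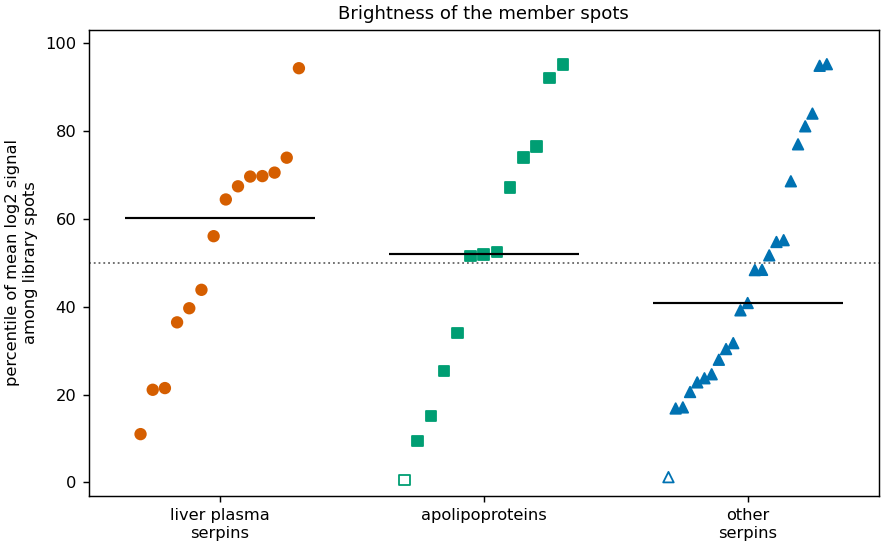
Percentile of each member spot's mean log2 signal among library spots, by family, with the median as a black line and a dotted line at percentile 50. Open symbols are Apof and Serpinb9, which did not exceed the 95th percentile of empty spots in all 4 channels, and all 3 families span most of the range.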

How the data were processed

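Members and lists were chosen with earlier results of these data known. Per the file headers, the authors deposited for each spot the mean raw intensity, background intensity and its SD in both dyes, a net intensity, and the ratio of net intensities, Alexa555 over Alexa647. The deposited value table holds log2 of that ratio. Not given in the sources used here is how the net intensity of Alexa647 was scaled. Main values start from the raw intensity: the background was corrected with normexp (offset 50) and each array was fitted with 1 loess curve that gave control spots no weight (limma 3.58.1, R 4.3.3). Ratios were then all turned to γ-conglutin over vehicle. Normalised signals are per channel on that scale. Median raw intensities of library spots were 1179 to 1683 over backgrounds of 37.5 to 48.3, and 2 arrays limit the precision.

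A spot was kept where each array had 1 or more channels above background by 2 SD (21707 spots, all 50 members among them). The files give no probe identifier, so spots of 1 accession were kept apart. Of the 47 member symbols, 39 are current rat symbols. Named genes were all liver plasma members, the highest and lowest of each other clade or list and a fixed panel (Serpinh1, Serpini1, Apod, Mttp, Lcat, Agt, Plg, F2, Alb), and further members are named for completeness. Some genes of the rule are not reported here. Alternatives changed the normalization, the background correction, the filter, the size rule or the choice among spots of a symbol, or used 1 array. The main scaling was tested on library spots whose γ-conglutin signal had been changed by known folds. Python 3.11.15 with pandas 2.3.3 and matplotlib 3.10.9 made the summaries.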

Additional observations from a re-analysis of the deposited data

How the results depend on the processing

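With both arrays and 1.5-fold, the counts of members higher and lower were 0 under each background correction, normalization and filter compared, and the count with one dye brighter was 0 too. The exceptions were array 2 alone, where 1 member was higher (Serpini1), and the size rule of 0.32, under which 1 member had one dye brighter (by construction, a lower threshold). Each array alone gave 0 to 1 members higher and 0 lower. The medians moved by less than 1 SD over the arrays, except with array 1 alone for liver plasma serpins and for apolipoproteins. Single arrays gave -0.011 and 0.031 for liver plasma serpins, -0.031 and 0.103 for other serpins, and -0.070 and -0.009 for apolipoproteins (array 1, then array 2). The deposited ratio as it stands was chosen after seeing the data. Apof and Serpinb9, near background, had means of up to 0.37 and 0.43 under other scalings. No paired analysis was possible because there is 1 pool per treatment, so no replicate pools to pair (each ratio already compares the pools within an array).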

Other observations

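Some symbols that begin with Apo fall outside the rule, and were named after their values were seen. Apom, an apolipoprotein of high density lipoprotein secreted by liver that carries sphingosine-1-phosphate, had a signal of 15145 and 12433 in the γ-conglutin pool, against 15169 and 11215 in the vehicle pool, and a ratio of 0.07 ± 0.11. Apobec1, the enzyme that edits the Apob transcript, had -0.22 on array 1 and 0.17 on array 2, and a mean of -0.02 ± 0.27. Neither passed 1.5-fold on an array.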
